A study of Mus musculus with 53 samples.

Results

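The 10 insulin and insulin-like growth factor (IGF) signalling genes described here are Igf1, Insr, Igf1r, Irs1, Irs2, Igfbp2, Igfbp4, Igfbp5, Foxo1 and Foxo3. They were selected by symbol, and all 10 were present among the 12372 genes of the count table. The table holds RNA sequencing read counts of 53 brain libraries from 14 male C57BL/6 mice, taken at 74 to 77 weeks of age. The SCA3 group consisted of 6 MJD84.2 mice, hemizygous carriers of a whole human ATXN3 gene whose CAG repeat is expanded, driven from its own promoter in every tissue, with the mouse Atxn3 gene kept. The control group consisted of 8 wild-type mice. All mice were untreated apart from behavioural testing and blood sampling. With 1 library per mouse and region, wild-type mice gave 8 brainstem, 7 cerebellum, 7 cortex and 8 striatum libraries, and SCA3 mice 6, 6, 6 and 5. The transgene is a human gene with no row in the mouse table, so the genotype labels were not checked against it.

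Insulin and IGF-1 bind related receptor tyrosine kinases on the cell surface. The active receptor phosphorylates adaptor proteins of the IRS family, which recruit phosphoinositide 3-kinase (PI3K), and the lipid made by that enzyme brings the kinase Akt to the membrane. Akt then phosphorylates the FoxO transcription factors, which leave the nucleus, so that their target genes are expressed most when insulin signalling is low. Outside the cell, IGF-binding proteins carry IGF-1 and limit its access to the receptor. In the brain the pathway takes part in neuronal growth, survival and energy balance.

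The 10 genes lie on 6 mouse chromosomes (GRCm38, GENCODE release 21). Igf1 lies on chromosome 10 (87858265 to 87937042), as does Foxo3 (42181841 to 42276755). Insr and Irs2 are on chromosome 8 (3122061 to 3279617 and 10984681 to 11008458), Igf1r is on chromosome 7 (67952827 to 68233668), Igfbp4 on chromosome 11 (99041244 to 99054392) and Foxo1 on chromosome 3 (52268336 to 52353221). Chromosome 1 holds Irs1 (82233101 to 82291416) and the neighbouring pair Igfbp2 (72824503 to 72852474) and Igfbp5 (72857932 to 72874884), which point towards each other with 5457 bp between their ends. The libraries did not keep strand, so reads of a gene and of an antisense partner cannot be told apart. An antisense annotation overlaps 5 of the 10 genes: Igf1os overlaps Igf1, Vmn2r-ps88 and Gm16180 overlap Insr, Gm9747 overlaps Irs1, 9530052E02Rik overlaps Irs2 and Gm20402 overlaps Foxo1. Gm38034 overlaps Foxo1 on its own strand.

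FoxO proteins bind short forkhead elements, and adaptor genes of this pathway are known FoxO targets. The 250 bases before each RefSeq start at hand were therefore searched on both strands for GTAAACA (reverse complement TGTTTAC). They were also searched for CAAAACA (reverse complement TGTTTTG), the letters of the classical insulin response element. RefSeq promoters on GRCm38.p6 were at hand for 9 of the 10 genes, with 2 for Igfbp2, which made 10 promoters. The stretch of Igf1 (87860861 to 87861110) and the second of Igfbp2 (72825137 to 72825386) lie inside the gene as placed above, before an internal start. The first motif was in none of them, against 3.17% of 32851 RefSeq promoters. The second was in 2, those of the adaptor genes Irs1 and Irs2, against 5.56% of all promoters and 3.75% of the 12279 promoters of genes in the count table. These 2 promoters are shown because Irs1 is among the genes that differed between genotypes below. Capitals mark the motif, which reads TGTTTTG on the strand of both genes and lies 111 to 105 and 32 to 26 bases before the start in Irs1 and 37 to 31 bases before it in Irs2. A match describes these letters only. The Irs1 sequence is chr1:82291440-82291689 on the minus strand (GC content 72.4%) and the Irs2 sequence is chr8:11008930-11009179 on the minus strand (72.8%).
Irs1: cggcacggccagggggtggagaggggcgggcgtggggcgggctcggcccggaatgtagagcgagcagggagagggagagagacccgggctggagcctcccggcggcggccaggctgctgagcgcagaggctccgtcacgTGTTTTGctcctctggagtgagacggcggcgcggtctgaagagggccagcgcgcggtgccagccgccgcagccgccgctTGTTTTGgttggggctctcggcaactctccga
Irs2: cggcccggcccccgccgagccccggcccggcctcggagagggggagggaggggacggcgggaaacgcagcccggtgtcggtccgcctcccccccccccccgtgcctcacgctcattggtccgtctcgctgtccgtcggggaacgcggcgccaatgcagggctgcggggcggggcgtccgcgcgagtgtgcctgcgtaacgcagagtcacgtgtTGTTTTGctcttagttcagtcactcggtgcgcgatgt

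Library totals ranged from 31.7 to 76.7 M counts (median 57.7 M; M stands for 1000000), and the RNA integrity number ranged from 5.7 to 9.0. The labelled regions were checked by summed counts per 1000000 counts of the library (CPM) of marker genes. Markers of cerebellar granule and Purkinje cells summed to at least 7414 CPM in cerebellum and at most 2094 CPM elsewhere. Markers of striatal projection neurons summed to 2693 to 11224 CPM in striatum, but also to 912.1 to 4795 CPM in cortex, so they did not separate the 2 regions. In striatum, the wild-type libraries of mice 7267058 and 7267059 stood apart, with thalamic markers summing to 1337 and 2268 CPM against 110.4 to 374.0 CPM in the other 11. The called striatal results are given with and without them. In bulk tissue, fewer cells of a type and less RNA per cell cannot be told apart.

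Among wild-type mice, the region where a gene of the pathway was highest differed from gene to gene. Foxo1 was highest in striatum, Foxo3 and Irs1 in cerebellum, and Igf1 in brainstem, while none of the region pairs of Igfbp5 passed the test. Per transcript length (RPKM, reads per kilobase of exon per 1000000 counts), Igfbp5 had the highest level of the 10 genes in each region, with wild-type means of 29.6 to 39.0 RPKM, and Igf1 the lowest, with 0.475 to 1.34 RPKM. Each level below is a mean ± SD in CPM, which compares regions within a gene. Differences are log2 fold changes from edgeR's likelihood ratio test, and FDR is the Benjamini-Hochberg adjusted p-value of that test over all 12372 genes, with a threshold of 0.05.

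**Figure D1:**
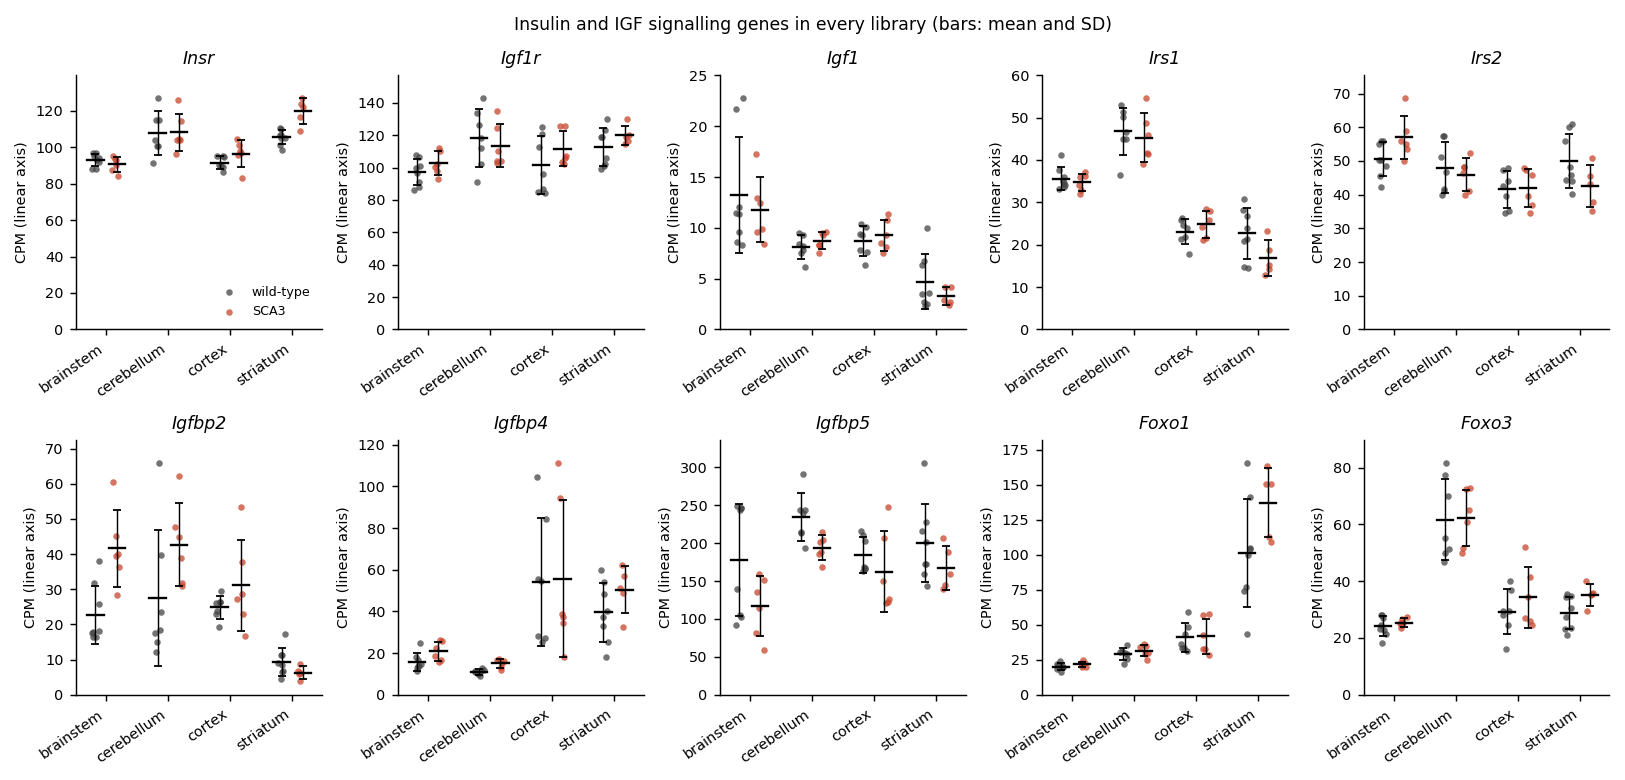
CPM of each of the 10 genes in every library (1 point per mouse, linear axes starting at 0), by region, with wild-type in grey and SCA3 in red and bars giving the mean and SD. Foxo1 stands highest in striatum (wild-type mean 101.2 CPM) and Foxo3 in cerebellum (61.6 CPM), and in all panels the points of wild-type and SCA3 mice overlap.

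The ligand Igf1, a growth factor that neurons and microglia release in the brain, was highest in brainstem, at 13.2 ± 5.72 CPM (SD, n = 8), with single libraries from 8.33 to 22.8 CPM. Cortex (8.69 ± 1.48, n = 7) and cerebellum (8.12 ± 1.15, n = 7) followed and did not differ beyond their spread (FDR = 0.719). Striatum was lowest at 4.70 ± 2.73 CPM (n = 8), below brainstem by a log2 difference of 1.49 ± 0.22 (SE; FDR = 1.45e-10). Mice 7267055 and 7267059 gave the highest brainstem values, at 21.7 and 22.8 CPM, and the other 6 lay at or below 12.1 CPM.

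The receptor genes were spread more evenly. Insr, which encodes the insulin receptor, was at 107.7 ± 12.1 CPM in cerebellum (n = 7), 105.6 ± 4.03 in striatum (n = 8), 93.0 ± 3.49 in brainstem (n = 8) and 91.5 ± 3.51 in cortex (n = 7). Cerebellum and striatum did not differ beyond their spread (FDR = 0.670), nor did brainstem and cortex (FDR = 0.721), and each of the first pair exceeded each of the second by 0.18 to 0.23 on the log2 scale. Igf1r, the IGF-1 receptor gene, followed the same order at its upper end, with 118.2 ± 17.9 CPM in cerebellum, 112.4 ± 11.7 in striatum, 101.6 ± 17.7 in cortex and 97.2 ± 8.16 in brainstem. No neighbours in that order differed, and 3 of the 6 region pairs passed the test. Per length, Insr and Igf1r lay close together in brainstem (6.76 ± 0.25 and 5.79 ± 0.49 RPKM, n = 8). Counting only the longest transcript would raise their levels over all wild-type libraries from 7.23 to 10.6 and from 6.38 to 9.40 RPKM.

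The adaptor genes differed from each other in their regional pattern. Irs1 was highest in cerebellum (46.8 ± 5.55 CPM, n = 7), followed by brainstem (35.6 ± 2.62, n = 8), and it was lower in cortex (23.1 ± 3.02, n = 7) and striatum (22.7 ± 5.96, n = 8). The last 2 did not differ beyond their spread (FDR = 0.886), and cerebellum exceeded striatum by 1.05 ± 0.12 on the log2 scale (FDR = 2.75e-17). Irs2, whose product does the same work downstream of both receptors, varied little, from 41.6 ± 5.43 CPM in cortex to 50.5 ± 4.99 in brainstem, with cerebellum (47.9 ± 7.56) and striatum (49.9 ± 7.97) between. Only cortex against brainstem (FDR = 0.00932) and against striatum (FDR = 0.0281) passed the test for Irs2.

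Values of the carrier genes varied widely between mice in some regions. Igfbp2, which choroid plexus, meninges and astrocytes express, was at 27.5 ± 19.2 CPM in cerebellum, 24.9 ± 3.27 in cortex and 22.8 ± 8.28 in brainstem, and these 3 regions did not differ beyond their spread. Striatum was lower, at 9.37 ± 3.98 CPM, by 1.28 to 1.55 on the log2 scale against the other regions. Igfbp4 was highest in cortex (54.2 ± 30.6 CPM) and striatum (39.6 ± 14.2), and lower in brainstem (15.7 ± 4.27) and cerebellum (10.98 ± 1.34), with neither the first 2 (FDR = 0.189) nor the last 2 (FDR = 0.0819) differing beyond their spread. Its cortical values ran from 25.5 to 104.3 CPM in wild-type mice. Igfbp5 was at 234.1 ± 31.5 CPM in cerebellum, 199.7 ± 51.6 in striatum, 184.9 ± 23.7 in cortex and 177.8 ± 74.2 in brainstem, and none of its 6 region pairs passed edgeR's test. Brainstem Igfbp5 fell into a higher set of 4 wild-type libraries (243.4 to 248.4 CPM) and a lower set of 4 (92.1 to 138.9 CPM).

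Of the transcription factor genes, Foxo1 passed the test in all 6 region pairs. It was at 101.2 ± 38.7 CPM in striatum (n = 8), 41.0 ± 10.2 in cortex (n = 7), 29.1 ± 4.37 in cerebellum (n = 7) and 20.2 ± 2.41 in brainstem (n = 8). Striatum exceeded brainstem by 2.33 ± 0.17 on the log2 scale (FDR = 5.39e-39). Foxo3 was highest in cerebellum, at 61.6 ± 14.3 CPM, and cerebellum exceeded the next region, cortex (29.3 ± 7.81), by 1.07 ± 0.16 (FDR = 4.02e-11). Cortex, striatum (28.8 ± 5.79) and brainstem (24.1 ± 3.49) did not differ beyond their spread for Foxo3.

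Over the region pairs, 6 of the 10 genes differed between brainstem and cerebellum (72.6% of all genes did), 5 between brainstem and cortex (65.4%), 7 between brainstem and striatum (64.2%), 6 between cerebellum and cortex (69.7%), 6 between cerebellum and striatum (69.5%) and 5 between cortex and striatum (34.4%). The share of the 10 lay below that of all genes in 4 pairs and above it in the 2 pairs of striatum with brainstem and with cortex, and a single gene moves such a share by 10 percentage points. Without the 2 striatal libraries high in thalamic markers, the striatal pairs lost 2 calls, Igf1r against brainstem (FDR = 0.130) and Irs2 against cortex (FDR = 0.0905), while Foxo1 exceeded brainstem by 2.52 and Igf1 lay below brainstem by a log2 difference of 1.92.

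SCA3 mice were then compared with wild-type mice in each region, which asks whether the expanded human ATXN3 transgene goes with a change of insulin and IGF signalling genes. In striatum, Insr was higher and Irs1 lower in SCA3 mice, and over the 4 regions together Igfbp2 differed. No gene of the 10 passed edgeR's test in brainstem (background 1.92% of all genes), cerebellum (0.0647%) or cortex (0.154%), where 2, 1 and 0 of the 10 had an unadjusted p under 0.05, as had 13.3%, 1.66% and 4.07% of all genes. The quasi-likelihood test and DESeq2 also called 0 in these 3 regions, and limma-voom called 1, Igfbp2 in brainstem. In striatum, 2 of the 10 were called, against 7.54% of all genes, with 5 of the 10 and 23.2% of all genes under an unadjusted p of 0.05. In the joint test of the 4 regions, 1 was called, against 4.73% of all genes. The test of whether the genotype effect differed between regions called 0 of the 10 by edgeR, by the quasi-likelihood test, by DESeq2 and by limma-voom, against 0.218% of all genes, with 3 of the 10 and 9.09% of all genes under an unadjusted p of 0.05. In no region did the libraries of the 2 genotypes separate fully for any of the 10 genes, against 1.38% of all genes in brainstem, 0.234% in cerebellum, 0.251% in cortex and 0.655% in striatum. Within a region each mouse gave 1 library, but the fit took all 53 libraries of the 14 mice as independent, also in the joint and region dependence tests, and deviations of libraries of 1 mouse had an estimated correlation of 0.14. In limma-voom with the mouse as a random block, which allows for this, the joint test of Igfbp2 gave FDR = 0.0364.

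**Figure D2:**
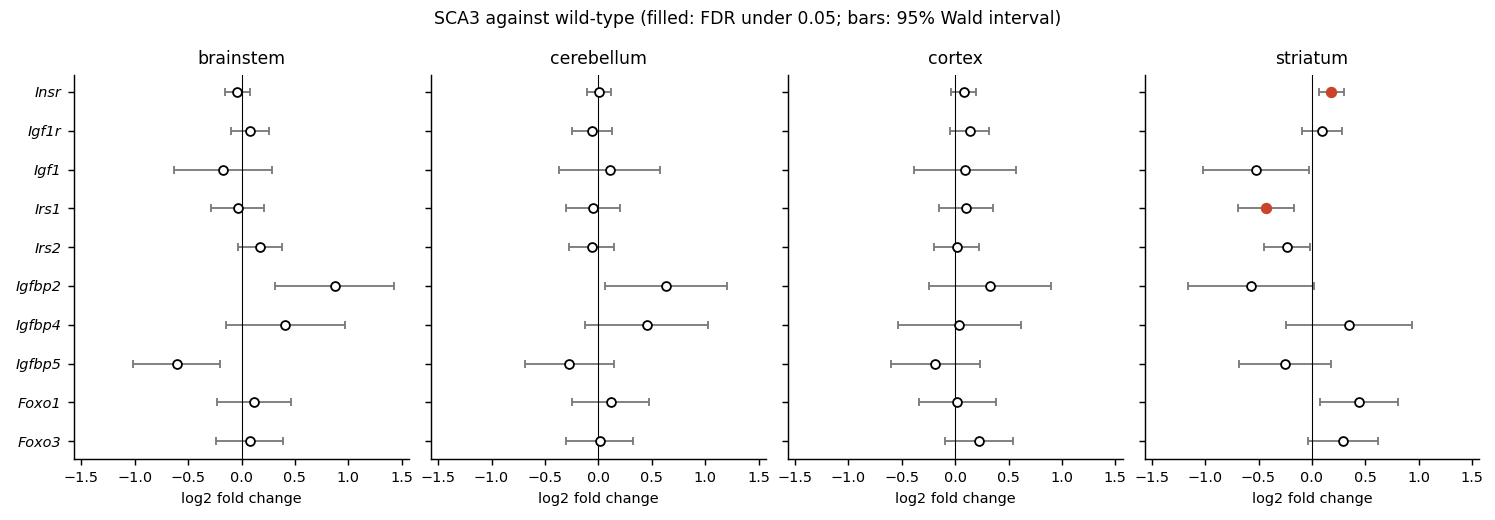
Log2 fold change of SCA3 against wild-type for the 10 genes in each region (points) with 95% Wald intervals (bars), filled where FDR was under 0.05. Only Insr (0.18) and Irs1 (-0.43) in striatum are filled, and the intervals of the 3 Igfbp genes and Igf1 are the widest.

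Striatal Insr was at 98.7 (lowest), 106.1 (median) and 110.3 CPM (highest) in 8 wild-type mice, and at 124.0, 126.9, 116.7, 109.1 and 122.3 CPM in the 5 SCA3 mice. Of the SCA3 libraries, 4 of 5 lay above every wild-type library and the fifth lay within the wild-type range. The difference was 0.18 ± 0.06 on the log2 scale (SE; FDR = 0.0381). In the other regions the Insr differences were -0.04 in brainstem, 0.01 in cerebellum and 0.08 in cortex, none past the threshold, and the dependence on region was not called (FDR = 0.547).

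Striatal Irs1 was at 14.6, 22.7 and 30.8 CPM (lowest, median and highest) in wild-type mice, and at 14.3, 15.3, 23.3, 18.7 and 12.7 CPM in SCA3 mice. The groups overlapped: 4 of 5 SCA3 libraries lay below the wild-type median, and 4 of 8 wild-type libraries lay above every SCA3 library. Irs1 fell by 0.43 ± 0.13 on the log2 scale (FDR = 0.0291), a call lost with limma-voom (FDR = 0.0692) and with the mouse as a replicate block (FDR = 0.0742), under which Insr kept its call (FDR = 0.0478 and 0.0436). In brainstem, cerebellum and cortex the Irs1 differences were -0.04, -0.05 and 0.10, none past the threshold, and the region dependence had FDR = 0.478.

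Striatal marker genes of other cell types and of the striatum itself had differences in level between the groups as well. Thalamic markers were called lower in SCA3 striatum for 6 of 9 measured genes (median log2 difference -1.56), astrocyte markers for 5 of 10 and oligodendrocyte markers for 3 of 10. Of all 12372 genes, 677 were called lower there. All 11 projection neuron markers had positive differences (median 0.47) with none called. Summed projection neuron markers were at 2693 (lowest), 5643 (median) and 11224 CPM (highest) in wild-type libraries and at 6928 to 10405 CPM in SCA3 libraries. Irs1 was at 30.8 CPM in the wild-type library with the lowest projection neuron sum, and at 14.8 and 14.6 CPM in the 2 wild-type libraries with the highest, which lay among the SCA3 values. Insr ran from 98.7 to 110.3 CPM over the same wild-type libraries. It was at 101.2 and 98.7 CPM in the 2 with the lowest projection neuron sums and at 110.2 and 110.3 CPM in the 2 with the highest. With the projection neuron score as a covariate in striatum alone, the Irs1 difference was -0.02 (FDR = 1) and the Insr difference 0.13 (FDR = 1). With a thalamic score they were -0.18 (FDR = 0.713) and 0.16 (FDR = 0.253). Without the 2 wild-type libraries high in thalamic markers they were -0.27 (FDR = 0.299) and 0.18 (FDR = 0.130). Insr kept its call without 6 of the 14 mice left out in turn and Irs1 without 7 of 14, and neither was called when the striatal libraries were fitted alone (FDR = 0.206 and 0.338). Both calls were also lost in libraries with an RNA integrity number of at least 7 (0.17, FDR = 0.206, and -0.30, FDR = 0.334) and in the largest series of mouse numbers (0.14, FDR = 0.654, and -0.41, FDR = 0.509). With bodyweight as a covariate the differences were 0.22 (FDR = 0.0504) and -0.43 (FDR = 0.0888), again uncalled. Bodyweights of the 2 genotypes do not overlap, so a call lost in that fit, here or below, cannot separate weight from genotype. The calls of both were also lost without SCA3 mice 7267054, 7267056 or 9083515 or wild-type mice 7267055, 7267058, 7267059 or 9083373, and that of Insr also without wild-type mouse 9083372, with FDR up to 0.140 for Insr and 0.175 for Irs1.

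**Figure D3:**
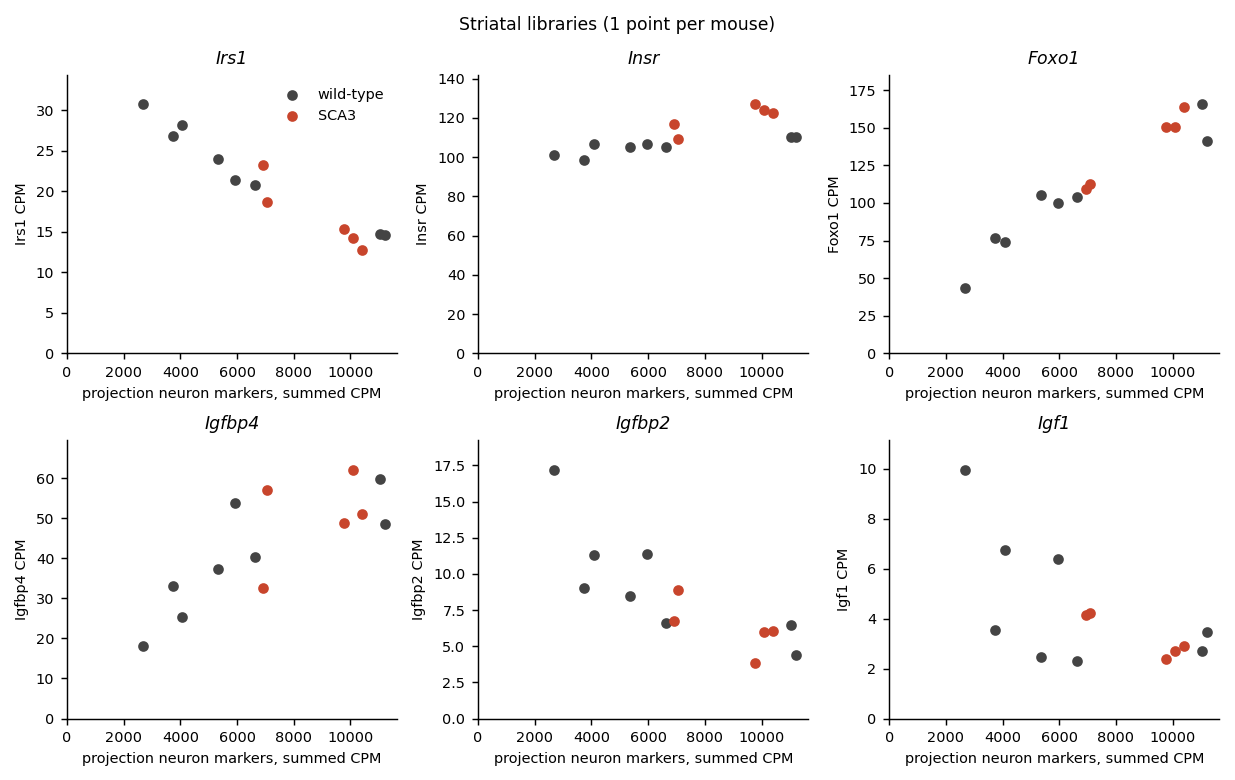
CPM of 6 of the genes (vertical, linear) against the summed CPM of striatal projection neuron markers (horizontal, linear) in the 13 striatal libraries, wild-type in grey and SCA3 in red. Irs1 is at 30.8 CPM in the library with the lowest marker sum (2693) and at 14.6 CPM in that with the highest (11224), both wild-type, and Foxo1 goes the other way, from 43.1 to 141.1 CPM.

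The other striatal differences did not pass the threshold. Foxo1 was at 43.1, 102.0 and 165.6 CPM (lowest, median, highest) in wild-type mice and at 150.6, 150.6, 109.0, 112.5 and 163.6 CPM in SCA3 mice, with all 5 above the wild-type median and 1 wild-type library above all of them. Its difference was 0.44 ± 0.19 (FDR = 0.122), and 0.00 with the projection neuron score as a covariate. Igf1 was at 2.69, 2.38, 4.16, 4.21 and 2.89 CPM in SCA3 mice against 2.31, 3.50 and 9.97 CPM in wild-type mice, a difference of -0.52 ± 0.25 (FDR = 0.192). The highest wild-type Igf1 values, 6.74 and 9.97 CPM, came from the 2 libraries high in thalamic markers. The Igf1 difference was -0.09 without these libraries, -0.28 without mouse 7267059 alone, -0.06 with the thalamic score and 0.015 with the projection neuron score as a covariate. Irs2 (-0.24, FDR = 0.174), Igfbp2 (-0.57, FDR = 0.241), Igfbp4 (0.35, FDR = 0.499), Igfbp5 (-0.25, FDR = 0.507), Foxo3 (0.29, FDR = 0.282) and Igf1r (0.09, FDR = 0.581) completed the striatal comparison. Without the 2 libraries high in thalamic markers, the differences of Igfbp2 (-0.30), Igfbp4 (0.14), Igfbp5 (-0.12), Foxo1 (0.25) and Igf1r (0.16) moved by more than 1.5 times and stayed uncalled, Irs2 was at -0.19 and Foxo3 at 0.23, and without mouse 7267058 alone Igfbp5 was at -0.14. The joint test of Igfbp2, described next, kept its call without those libraries (FDR = 0.0417). All 5 SCA3 libraries of Foxo3 and of Igf1r lay above the wild-type median, and both groups overlapped.

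Igfbp2 was called in the joint test of the 4 regions (FDR = 0.0228), and its differences were 0.87 in brainstem, 0.64 in cerebellum, 0.32 in cortex and -0.57 in striatum. In brainstem it was at 16.3, 18.0 and 38.1 CPM (lowest, median, highest) in 8 wild-type mice and at 28.2, 39.7 and 60.6 CPM in 6 SCA3 mice. All 6 SCA3 libraries lay above the wild-type median and 4 of them above every wild-type library. The difference of 0.87 ± 0.28 missed the threshold (FDR = 0.0764). Brainstem libraries of the 2 genotypes also differed in RNA integrity number (6.3 to 7.6 in wild-type and 7.4 to 8.0 in SCA3 mice) and in median total (45.7 and 67.8 M counts). With that number as a covariate the difference was 0.91 (FDR = 0.100), and in libraries with a value of at least 7 it was 1.02 (FDR = 0.0371). In cerebellum it was at 12.1, 18.4 and 65.9 CPM in 7 wild-type mice and at 30.9, 41.8 and 62.2 CPM in 6 SCA3 mice, where 5 of 7 wild-type libraries lay below every SCA3 library and 1 lay above all of them. The cerebellar difference was 0.64 ± 0.29 (FDR = 1.00).

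Choroid plexus, the secretory lining of the ventricles, is a known site of Igfbp2 expression, and its markers varied between libraries. In cerebellum the 3 measured choroid plexus markers summed to 19.6 to 2118 CPM in wild-type and 658.1 to 1998 CPM in SCA3 libraries, with positive differences for 3 of 3 (median 1.26) and none called. The wild-type library with the lowest sum had the lowest Igfbp2 value (12.1 CPM), and that with the highest sum had the highest (65.9 CPM). With a choroid plexus and leptomeningeal score as a covariate the cerebellar Igfbp2 difference was 0.05 (FDR = 1.00). In brainstem the choroid plexus sum was at 11.6 to 28.3 CPM over all libraries, and the 7 leptomeningeal markers had negative differences (median -0.51, none called). With the same score as a covariate the brainstem difference was 1.02 (FDR = 3.29e-15), and with the brainstem fitted alone it was 0.87 (FDR = 0.00661). The wild-type brainstem library of mouse 7267059 had a leptomeningeal sum of 484.6 CPM against at most 176.9 CPM in the other 13 and the highest wild-type Igfbp2 value, and without that mouse the brainstem difference was 1.02 (FDR = 0.0116). Without any of the other 13 mice it was not called (FDR up to 0.269), and over all alternatives it was called in 8 of 30 (0.72 to 1.02). Astrocyte markers, whose cells also express Igfbp2, were called lower in SCA3 brainstem for 4 of 10 genes, as were 142 of all 12372 genes. Their sums were 3766 to 5290 CPM against 4266 to 8884 CPM in wild-type mice. Oligodendrocyte markers had negative differences in brainstem for 10 of 10 genes (median -0.20, 1 called), with sums of 9455 to 15978 CPM in SCA3 and 10348 to 21460 CPM in wild-type mice, and their part in the Igfbp2 and Igfbp5 differences was not tested. The joint call was lost without mouse 7267054, 7267055, 7267058, 9083372 or 9083513 (FDR up to 0.0929), with bodyweight as a covariate (FDR = 0.136), with the quasi-likelihood test (FDR = 0.0655) and in the largest series of mouse numbers (FDR = 0.582), and it was kept in 19 of 27 alternatives.

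**Figure D4:**
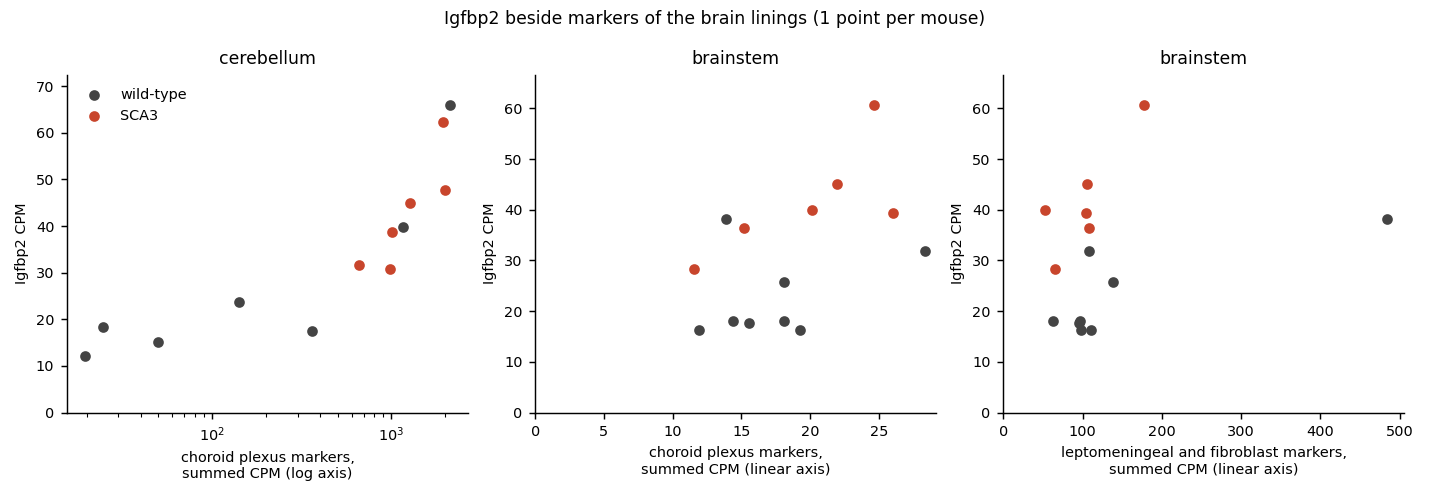
Igfbp2 CPM (vertical, linear) against the summed CPM of choroid plexus markers in cerebellum (log axis) and brainstem (linear axis) and of leptomeningeal and fibroblast markers in brainstem (linear axis), 1 point per mouse, wild-type in grey and SCA3 in red. In cerebellum the points rise from 12.1 CPM at a marker sum of 19.6 to 65.9 CPM at 2118, both wild-type. In brainstem 4 of 6 SCA3 points lie above every wild-type point.

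The neighbour of Igfbp2, Igfbp5, had negative differences in the 4 regions, of -0.61 ± 0.21 in brainstem (FDR = 0.114), -0.27 ± 0.21 in cerebellum, -0.19 ± 0.21 in cortex and -0.25 ± 0.22 in striatum. Brainstem Igfbp5 was at 92.1, 191.2 and 248.4 CPM (lowest, median, highest) in wild-type mice and at 58.7, 124.4 and 159.9 CPM in SCA3 mice, all 6 of which lay below the wild-type median. In cerebellum, likewise, all 6 SCA3 libraries (169.1 to 215.3 CPM) lay below the wild-type median of 239.5 CPM, and 4 of 7 wild-type libraries lay above every SCA3 library. The joint test gave FDR = 0.162 for Igfbp5. With a thalamic score as a covariate in brainstem alone its difference was -0.80 (FDR = 0.0240).

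Igfbp4, the remaining carrier gene, was at 8.75, 11.2 and 12.9 CPM (lowest, median, highest) in wild-type cerebellum and at 11.9, 15.7 and 17.02 CPM in SCA3 cerebellum, where 5 of 6 SCA3 libraries lay above every wild-type library. The difference of 0.45 ± 0.29 missed the threshold in the fit of all regions (FDR = 1.00) and passed it when cerebellum was fitted alone (0.46, FDR = 0.0255). That was the only call in 29 alternatives, over which the difference ran from 0.29 to 0.51. In brainstem the Igfbp4 difference was 0.41 ± 0.28 (FDR = 0.553), with all 6 SCA3 libraries above the wild-type median of 14.2 CPM. In cortex it was 0.04 ± 0.29 (FDR = 1.00). Among SCA3 cortices, the library with the lowest sum of cortical excitatory neuron markers (891.0 CPM) had the lowest Igfbp4 (18.0 CPM) and that with the highest sum (2826 CPM) the highest Igfbp4 (111.2 CPM). In wild-type cortices Igfbp4 was at 27.4 CPM in the library with the lowest sum (830.0 CPM) and at 54.4 CPM in that with the highest (2828 CPM), neither of them the lowest or highest wild-type value. The part of these markers in the comparison was not tested.

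For the remaining genes no difference outside striatum passed the threshold. Irs2 had a difference of 0.17 ± 0.10 in brainstem (FDR = 0.467), with 5 of 6 SCA3 libraries above the wild-type median, and of -0.06 and 0.02 in cerebellum and cortex. Igf1r differences lay between -0.06 and 0.14, those of Igf1 between -0.17 and 0.11, those of Foxo1 between 0.02 and 0.12 and those of Foxo3 between 0.01 and 0.23. The Igf1 difference in brainstem, -0.17, depended on the setting. It was -0.05 with the RNA integrity number as a covariate and -0.06 with limma-voom, uncalled in each. The errors bound what could be seen: the 95% Wald interval of the cerebellar Insr difference ran from -0.11 to 0.12, whereas that of Igf1 ran from -0.37 to 0.58.

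The rest of the pathway was examined with 6 lists of genes other than the 10 (69 of 81 listed genes measured). The lists were chosen with earlier results of these data known, and their counts are a description. Of all genes, 1.92% were called in brainstem (96 higher and 142 lower) and 7.54% in striatum (256 higher and 677 lower). Of the ligands and receptors 2 of 5 were measured and of the IGF carriers and their proteases 4 of 10, and edgeR called none of them in any region. Of 15 measured genes of the mTORC1 and GSK3 step none was called either. Among 13 receptor adaptor genes 1 fell in striatum, Gab1 (-0.41, FDR = 0.0415), which encodes a docking protein for PI3K. Among 17 genes of the PI3K and Akt step, Pdpk1, the gene of a kinase that activates Akt, rose in striatum (0.26, FDR = 0.0147). Its brainstem difference was -0.18 (FDR = 0.214). Phlpp1, which encodes a phosphatase that removes a phosphate from Akt, fell in brainstem (-0.27, FDR = 0.0489) and striatum (-0.25, FDR = 0.0467).

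Among 18 other FoxO factors and targets, 1 was called higher in brainstem and 4 in striatum, and none was called lower. Of all 12372 genes, 96 were called higher in brainstem and 256 in striatum. Foxo4, another FoxO factor gene, rose in both (0.27, FDR = 0.002, and 0.21, FDR = 0.0205), with 0.25 in cortex (FDR = 0.0694) and 0.09 in cerebellum, and its joint test gave FDR = 4.42e-07, a call lost with bodyweight as a covariate (FDR = 0.0737) and in the largest series of mouse numbers (FDR = 0.114). The cyclin G2 gene Ccng2 (0.39, FDR = 0.0221) and the stress-response genes Sesn3 (0.37, FDR = 0.0302) and Sesn1 (0.19, FDR = 0.0326) rose in striatum. In brainstem their differences were -0.08, -0.25 and -0.01, in that order. In cerebellum and cortex they lay between 0.03 and 0.17, and none was called outside striatum. Cat, another gene of the list, had uncalled negative differences in brainstem (-0.22) and striatum (-0.21).

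Of the striatal calls of these 7 pathway genes, 6 were lost without the 2 wild-type libraries high in thalamic markers, a setting chosen after the data were seen. Without those libraries Foxo4 kept its call (0.24, FDR = 0.0286), and the differences of Pdpk1 (0.20), Ccng2 (0.26), Sesn3 (0.28), Sesn1 (0.16), Gab1 (-0.23) and Phlpp1 (-0.11) were not called, with FDR from 0.127 for Pdpk1 to 0.511 for Phlpp1. That left 1 of the 18 FoxO factors and targets called in striatum, 0 of the 17 genes of the PI3K and Akt step and 0 of the 13 adaptors, while the share of all genes called went from 7.54% to 2.34%. None of the 7 was called with the striatal libraries fitted alone, in libraries with an RNA integrity number of at least 7, or with a thalamic or a projection neuron score as a covariate, settings that called 34 to 139 of all 12372 genes. With the striatal libraries fitted alone the differences were 0.22 for Foxo4, 0.26 for Pdpk1, 0.39 for Ccng2, 0.37 for Sesn3, 0.19 for Sesn1, -0.41 for Gab1 and -0.25 for Phlpp1. With the projection neuron score the difference of Ccng2 was 0.11 and that of Pdpk1 0.10, and Foxo4 was at 0.19. With bodyweight as a covariate Phlpp1 alone kept its striatal call (-0.32, FDR = 0.0447), and with the quasi-likelihood test Gab1 and Phlpp1 lost theirs (FDR = 0.0533 and 0.0535), as they did with the mouse as a replicate block (FDR = 0.0654 and 0.0701). In brainstem, Foxo4 kept its call in 29 of 30 alternatives (0.23 to 0.29), with the exception of the largest series of mouse numbers (0.24, FDR = 0.285), and Phlpp1 in 12 of 30, its call being lost with the block too (FDR = 0.0562). With the RNA integrity number as a covariate the brainstem differences were 0.27 for Foxo4 (FDR = 0.00465) and -0.25 for Phlpp1 (FDR = 0.122). With a thalamic score in brainstem alone, 5 of the 18 FoxO factors and targets were called, all higher, where 5.31% of all genes were called in either direction. Only 1 of the 18 was called in brainstem with the quasi-likelihood test, DESeq2, limma-voom or the RNA integrity number as a covariate. The same count came from brainstem fitted alone, without or with the choroid plexus and leptomeningeal score.

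The median difference of the FoxO factors and targets was 0.10 in brainstem, 0.11 in cerebellum, 0.11 in cortex and 0.12 in striatum, where the medians of all genes lay between -0.0043 and 0.0028. The FoxO genes among the 10, Foxo1 and Foxo3, had positive differences, none called, and the smallest of them, Foxo1 in cortex (0.02) and Foxo3 in cerebellum (0.01), changed sign under other settings, such as age as a covariate for Foxo1 (-0.02) and bodyweight as a covariate for Foxo3 (-0.05).

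Bodyweight was labelled for every mouse and differed between the genotypes without overlap. Wild-type mice weighed 37.21 to 53.61 g (mean 43.4 ± 5.61 g, SD, n = 8) and SCA3 mice 28.16 to 34.74 g (31.0 ± 2.55 g, n = 6). The difference of -12.3 g gave p = 0.000333 in a two-sided exact permutation test, the smallest value that 3003 arrangements allow. Genotype and bodyweight therefore cannot be told apart between the groups, and the relation of the genes to bodyweight was examined within wild-type mice only.

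None of the 10 genes had a slope on bodyweight past edgeR's test in brainstem (background 0.0323% of all genes), cerebellum (0%), cortex (0%) or striatum (0.113%), nor in the joint test of the 4 slopes (0.234%). None had an unadjusted p under 0.05 either, and the quasi-likelihood test, DESeq2 and limma-voom called 0. The steepest slopes were those of Igfbp2 in cerebellum (-0.63 ± 0.41 log2 per 10 g, SE), Igfbp4 in cortex (-0.47 ± 0.36), Foxo1 in cortex (0.43 ± 0.26) and Igfbp5 in brainstem (0.40 ± 0.27). The slopes of Insr were the best bounded, with 95% Wald intervals reaching no further than -0.15 and 0.23 per 10 g. No gene of the pathway lists was called either.

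Correlations of log2 CPM with bodyweight were computed for each gene and region, 40 relations in all, and 1 had an exact permutation p under 0.05. Irs2 in cortex had r = -0.80 (two-sided exact permutation p = 0.0359, FDR over all genes 0.999) and rho = -0.93 (exact permutation p = 0.00675, FDR 0.943), n = 7 mice, and r = -0.85 without the 2 mice farthest from the median weight. It fails the correction over all genes. In cortex 3.65% of all genes had an exact Pearson p under 0.05, and the corresponding shares were 6.54% in brainstem, 3.94% in cerebellum and 5.47% in striatum. Cortical Irs2 was at 42.0 ± 5.71 CPM (n = 6) in the lighter SCA3 mice and at 41.6 ± 5.43 CPM (n = 7) in wild-type mice, a log2 difference of 0.02 with a 95% Wald interval from -0.20 to 0.23. For Foxo1 in cortex r was 0.75 (exact permutation p = 0.0512, FDR 0.999), and it dropped to 0.14 without the 2 farthest mice, so that it rests on them. Of the other steepest slopes, Igfbp2 in cerebellum had r = -0.28, and -0.01 without those mice. Igfbp4 in cortex went from -0.32 to -0.595 and Igfbp5 in brainstem from 0.40 to 0.56. Over the 40 relations, 24 kept their sign without those mice, and the lowest FDR was 0.847 for r and 0.565 for rho. The largest series of mouse numbers held 4 wild-type mice, for which no correlation was computed. Their cortical Irs2 was at 47.3, 42.4, 39.6 and 34.5 CPM at weights of 41.07, 41.5, 49.86 and 53.61 g, lower with each higher weight. These 4 mice are among the 7 that gave the correlation, so their order is no separate test of it.

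**Figure D5:**
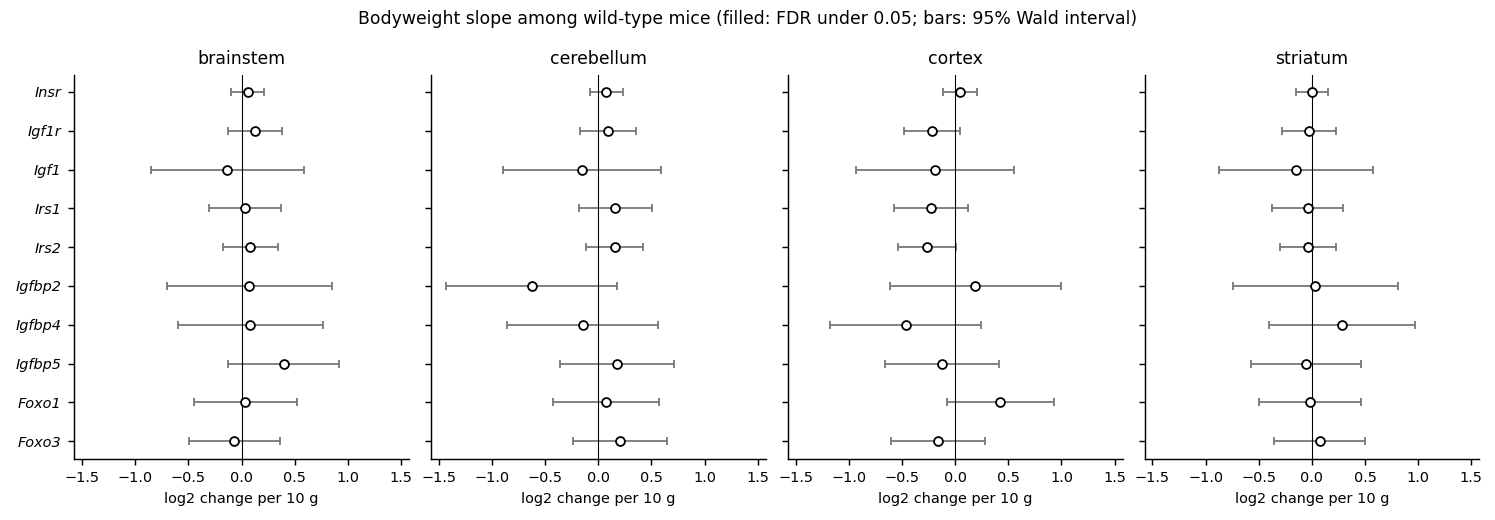
Slope of each of the 10 genes on bodyweight among wild-type mice in each region (log2 change per 10 g, points) with 95% Wald intervals (bars). No point is filled, since none had FDR under 0.05, and the steepest is Igfbp2 in cerebellum (-0.63).

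The genes whose profile was most like each of the 10 were listed by Pearson's r of log2 CPM over the 30 wild-type libraries, a description in which libraries share mice and the points are set mostly by region. Foxo1 was most like Kdm3a (r = 0.97), Ppp1r7 (0.96) and Cdc42ep3 (0.95), Irs1 most like Fam13a (0.97), Rnf152 (0.97) and Mreg (0.96), and Foxo3 most like Tmem120b, Fiz1 and Dhx16 (0.96 each). Igfbp4 was most like Lmo4, Crip2 and Magi2 (0.94 each), Insr most like Asxl2, Ino80d and Zfp266 (0.88 to 0.89) and Igf1 most like Dcbld2 (0.87), Nrn1 (0.84) and Abcg2 (0.83). Igfbp2 was most like Lepr (0.82), Ptgds (0.81) and Aldh1a2 (0.79), of which Ptgds and Aldh1a2 are known from the meninges. The closest partners of Igf1r (Lzic, 0.79), Igfbp5 (Marveld1, 0.71) and Irs2 (Tmem104, 0.68) had lower r than those of the other 7.

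Over deviations from the group means in all 53 libraries, which removes the mean of each region and genotype, Irs1 again stood closest to Fam13a (r = 0.84) and Igfbp2 to Lepr (0.69). Foxo1 stood closest to Ppp1r7 (0.88), followed by Fam184b (0.87) and Gng7 (0.85). Foxo3 stood closest to Cacna1a (0.89), a calcium channel gene, Insr to Suv420h1 (0.85), Igfbp4 to Pip4k2c (0.83), Igf1r to Dip2b (0.81) and Igf1 to Rorb (0.77), while Igfbp5 (Syt1, 0.72) and Irs2 (Pigs, 0.71) followed. Among the 10 genes themselves, the strongest relations over the wild-type libraries were negative: Irs1 with Igfbp4 (r = -0.84) and Igf1 with Foxo1 (-0.81). Within groups these were -0.24 and -0.48, and the closest pair within groups was Igfbp4 with Foxo3 (0.59).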

How the data were processed

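Poly-A libraries without strand information were made from each dissected region. The authors aligned reads to GRCm38 with STAR 2.3.0e, uniquely mapped reads only, counted them per RefSeq gene with HTSeq 0.6.1 without strand, and deposited raw read counts of genes with an average above 4 CPM, so low genes of the pathway were not tested. Groups came from the labels (region, genotype). Counts were normalised by TMM in edgeR 4.0.16 (R 4.3.3), and negative binomial models with 1 mean for each region and genotype were compared by likelihood ratio tests, as in the study, with a threshold of FDR 0.05 over all 12372 genes. A joint test covered genotype and its interactions with region, and slopes on bodyweight were fitted over the 30 wild-type libraries. RPKM used exon lengths of GENCODE mouse release 21. Exact correlations were computed in Python 3.11.15. Alternatives were edgeR's quasi-likelihood test, DESeq2 1.42.0, limma-voom (limma 3.58.1) with and without the mouse as a block, other size factors, a count filter of 10, RIN, age, bodyweight, mouse number series and marker scores as covariates, subsets of libraries and leaving out each mouse. The scripts were tested on simulated data.

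Same-numbered libraries come from 1 mouse. Deviations from group means correlated between regions of the same mouse with a median r of 0.14 over 75 pairs (-0.39 to 0.49), against -0.01 over 460 pairs of different mice. The text names the 10 genes, pathway genes called in at least 1 region, and, for each of the 10, 1 to 3 of the 3 most alike genes by each measure. The members and the gene and marker lists were chosen with earlier results of these data known. Of the other marker lists, microglia had 1 gene called lower in brainstem, and cerebellar cells 1 and brainstem neurons 1 called lower in striatum. Endothelium, cortical excitatory neurons and inhibitory interneurons had none.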

Additional observations from a re-analysis of the deposited data

How the results depend on the processing

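No called difference of the 10 genes reversed under any alternative. Of 3820 single-gene values under the alternatives, 146 changed sign where the difference was called neither there nor in the reported fit. Of the alternatives other than leaving out a mouse, 2053 single-gene values kept their side of the threshold, 15 gained a call and 30 lost it. Of 1211 values of the 7 named pathway genes, 1031 kept their side of the threshold, 24 gained a call, 156 lost it and none reversed.

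The number of the 10 genes called in striatum (2) was 1 (Insr, with Irs1 lost) with limma-voom and with the mouse as a replicate block, which also left 1 in brainstem. It was 0 with libraries of RIN 7 or more, the region alone, bodyweight as a covariate, the largest mouse number series alone, a thalamic, a choroid plexus and leptomeningeal or a projection neuron score, or without the 2 striatal libraries high in thalamic markers. The last 2 alternatives were chosen after seeing the data. The number in brainstem (0) was 1 with limma-voom, with RIN 7 or more, with the region alone and without those 2 libraries, and 2 with a thalamic or with a choroid plexus and leptomeningeal score. In cerebellum (0) it was 1 with the region alone. In the joint test (1) it was 0 with the quasi-likelihood test, with bodyweight as a covariate and in the largest series. With the block Igfbp5 was also called between wild-type brainstem and cerebellum (-0.51, FDR = 0.0157), the joint tests of Sesn3 (FDR = 0.0555) and Phlpp1 (FDR = 0.0886) lost their calls, and beside the regional calls of Gab1 and Phlpp1 given above no other call changed. The cause of these changes was not tested, and the fits of subsets also held fewer libraries.

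Leaving out 1 mouse at a time gave 0 to 1 genes called in brainstem, 0 in cerebellum and cortex, 0 to 3 in striatum, 0 to 3 in the joint test, 0 to 1 for region dependence and 0 for every bodyweight slope. Between wild-type regions it gave 6 to 7 for brainstem and cerebellum, 4 to 6 for brainstem and cortex, 6 to 8 for brainstem and striatum, 4 to 7 for cerebellum and cortex, 6 for cerebellum and striatum and 4 to 5 for cortex and striatum. The bodyweight difference stayed between -13.19 and -10.85 g.

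Groups held 5 to 8 mice, and the lowest count of the 10 genes in any library was 91 (Igf1, striatum). Low genes such as Igf1 carry wide intervals.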
